A study of Mus musculus with 73 samples.

Results

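Transcript levels of the core subunits of Polycomb repressive complex 1 (PRC1) were followed at E6.5 in individually sampled mouse embryos, in the epiblast, which forms the embryo proper, and in the extraembryonic ectoderm (ExE), a precursor of the placenta. The genes were chosen by name as the RING, PCGF and CBX subunits and the variant-complex cofactors: Rnf2, Ring1, Bmi1, Pcgf1, Pcgf2, Pcgf6, Cbx2, Cbx7, Kdm2b and Rybp. Of these 10 genes, 9 had a row among the 30546 genes of the expression table, and Pcgf1 was not analysed here.

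PRC1 is an E3 ligase that attaches ubiquitin to histone H2A at repressed developmental genes. Every form of the complex is built on a catalytic RING protein, RNF2 (also called RING1B) or its paralogue RING1, paired with a PCGF protein. Canonical complexes hold PCGF2 (MEL18) or BMI1 (PCGF4) and a CBX chromodomain protein that binds the histone H3 methylation laid down by PRC2, of which EED is a core subunit. Variant complexes carry RYBP or its relative YAF2 in place of the CBX protein. The PCGF1 form is brought to unmethylated CpG islands by KDM2B, and the PCGF6 form joins MAX, MGA and L3MBTL2.

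Each library was made from one tissue of 1 embryo, from bulk RNA. The embryos used as reference had a BDF1 mother and a CAST father, made by sperm injection into the egg and transferred to CD-1 females, and carried no targeted disruption (wild type BDF1xCAST, 7 epiblast and 7 ExE libraries). Wild-type embryos of the reverse cross, CASTxBDF1, came from natural mating (4 and 4). Knockouts were made in BDF1xCAST zygotes by injecting Cas9 mRNA with several guide RNAs against exons of Rnf2 (6 epiblast and 5 ExE libraries), Eed (9 and 10), Ehmt2 and Ehmt1 together, labelled G9a-Glp (6 and 8), or Dnmt1 (3 and 3). Rnf2 is thus both a measured subunit and a target, Eed belongs to PRC2, G9a and GLP methylate histone H3 lysine 9, and DNMT1 maintains DNA methylation. Each knockout embryo is its own editing event, and its alleles are not given in the labels. BDF1 is a hybrid of laboratory strains and CAST is wild-derived, so reads over their polymorphisms can be assigned to an allele.

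The table counts only reads over such polymorphisms, and levels are given as CPM, the count scaled to the library total. A gene's CPM depends on how many polymorphisms its transcript holds, so levels were compared between libraries and never between genes. Library totals ran from 1141414 to 17653087 reads, and the Rnf2 libraries were the deepest (5549733 to 17653087 in epiblast, 1847681 to 10263280 in ExE, against 1311863 to 3028267 and 2685835 to 3053690 in wild type BDF1xCAST). The epiblast markers Fgf5 and Otx2 averaged 382 and 40.1 CPM in wild-type epiblast and 0.551 and 0.242 in ExE, and the ExE marker Elf5 averaged 1.29 and 265. Other markers of these lists did not separate the tissues: Pou5f1 was near 0 in wild-type epiblast as well (0.635 CPM), the epiblast marker Utf1 averaged 77.8 CPM in epiblast and 190.5 in ExE, and the ExE marker Eomes averaged 99.7 and 115. Of the targets other than Rnf2, Eed fell from 157 to 9.38 CPM in epiblast and from 201 to 7.94 in ExE of its knockout. Dnmt1 fell from 33.0 to 8.02 CPM in Dnmt1 epiblast, and in Dnmt1 ExE it averaged 29.2 against 47.5 in wild type (edgeR adjusted p = 0.137). In G9a-Glp ExE, Ehmt2 fell from 15.4 to 3.75 CPM and Ehmt1 from 29.3 to 14.8. In G9a-Glp epiblast, Ehmt2 averaged 3.07 CPM in both groups, and Ehmt1 21.2 against 29.3 (edgeR adjusted p = 0.263). In 6 knockout libraries the targeted genes were not below the second-lowest wild-type library: Rnf2 ExE embryos 2, 5 and 6, G9a-Glp epiblast embryos 2 and 7, and Dnmt1 ExE embryo 1. Groups are therefore called by their label, and calls of subunits against wild type that rest on these libraries are also given without them. The other PRC1 genes were read with all libraries only.

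Counts set which subunits could be tested. Median reads per library were 698.5 for Pcgf6, 128.5 for Rnf2, 65.5 for Cbx2, 54.0 for Cbx7, 30.0 for Bmi1 and 16.0 for Pcgf2. Ring1 (4.5) and Kdm2b (4.0) mostly fell under edgeR's filter on low counts and were then read from a fit without the filter. Rybp (9.0) passed the filter in the ExE knockout fits and in Dnmt1 epiblast. It fell under the filter in the other epiblast knockout fits and between the wild-type tissues, and was read there without it. In mm10 coordinates Rnf2 lies at chr1:151469406-151500922, Ring1 at chr17:34020792-34024680, Bmi1 at chr2:18677018-18686629, Pcgf2 at chr11:97688821-97701348 and Pcgf6 at chr19:47033617-47051096. Cbx2 lies at chr11:119023019-119031275, Cbx7 at chr15:79915804-79971148, Kdm2b at chr5:122870664-122989162 and Rybp at chr6:100228565-100287358. Rnf2, Cbx2, Cbx7 and Kdm2b overlap Gm36527, Gm35829, Apobec3 and Gm33118 on the genome, and their counts are uncertain as separate genes to that extent.

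Bmi1 and Pcgf2, the paralogous PCGF proteins of canonical PRC1, were the subunits with the largest increases in the Polycomb knockouts described below, so the 250 bases before an annotated start of each are shown (RefSeq, GRCm38.p6, 5′ to 3′ on the strand of the gene). The Bmi1 window is chr2:18676768-18677017 on the plus strand and the Pcgf2 window is chr11:97699649-97699898 on the minus strand. The Bmi1 window ends where its gene begins. The Pcgf2 gene extends upstream to 97701348, so its window lies inside the gene, before an internal start. Capitals mark the E-box CACGTG and the runs AAGGAATGAGG and AGCCATTTTG, which both windows hold in the same order.
Bmi1: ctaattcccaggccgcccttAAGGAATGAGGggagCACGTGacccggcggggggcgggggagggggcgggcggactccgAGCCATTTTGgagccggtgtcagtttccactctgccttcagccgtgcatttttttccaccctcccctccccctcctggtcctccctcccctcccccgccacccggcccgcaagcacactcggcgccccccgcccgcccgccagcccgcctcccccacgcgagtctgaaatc
Pcgf2: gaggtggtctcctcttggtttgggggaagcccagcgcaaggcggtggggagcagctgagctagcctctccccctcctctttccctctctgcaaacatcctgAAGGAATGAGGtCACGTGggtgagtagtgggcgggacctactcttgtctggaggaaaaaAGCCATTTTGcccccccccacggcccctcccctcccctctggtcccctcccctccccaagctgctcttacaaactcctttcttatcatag
The E-box begins 215 bases before that start of Bmi1 and 137 bases before that of Pcgf2. The E-box was chosen after the windows had been read. The marked runs are the rarer of the stretches of at least 9 bases that both windows share. Commoner shared stretches, in 0.253% and 0.338% of promoter windows, were left unmarked. The stretch in 0.338% of windows follows the marked runs in Bmi1 and precedes them in Pcgf2, so it breaks the shared order. The E-box and the stretches were searched on both strands of all 32851 promoter windows of this length. CACGTG was in 1978 of them (6.02%), AAGGAATGAGG in 12 (0.0365%) and AGCCATTTTG in 34 (0.103%). Among the 7 subunits with a window, Bmi1 and Pcgf2 were the holders of each. The windows differ in base composition, with 21 CG dinucleotides in Bmi1 and 5 in Pcgf2, against a median of 6. A match in letters is a description and no binding was measured.

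The question of the wild-type comparison was how PRC1 composition differs between the embryonic and the extraembryonic lineage. In wild type BDF1xCAST, ExE had less Cbx2 and Pcgf6 and more Bmi1 and Cbx7 than epiblast, and Rnf2 averaged 45.3 and 45.5 CPM. Of the 6 subunits that passed the filter, 4 were called at an adjusted p under 0.05 (edgeR's quasi-likelihood test), 2 higher and 2 lower in ExE, in a comparison that called 56.7% of all genes tested. The background is so high that the count itself is not particular to PRC1. Fewer cells with a transcript and less RNA per cell cannot be told apart in these bulk libraries.

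Rnf2, the main catalytic subunit, ranged from 32.8 to 56.6 CPM in wild-type BDF1xCAST epiblast (median 45.6) and from 21.4 to 65.9 in ExE (median 51.7). The groups overlapped throughout, with 4 of 7 embryos higher in ExE. The log2 difference, ExE minus epiblast, was 0.02 ± 0.23 (SE; adjusted p = 0.955). Its paralogue Ring1 ran from 2.37 to 5.45 CPM in epiblast (median 3.79) and from 0 to 1.65 in ExE (median 0.667). The tissues did not overlap, as was true in the lower direction for 12% of genes with a mean of 1 to 5 CPM, and this rests on 64 reads in all epiblast libraries and 13 in all ExE libraries. In the fit without a filter, which called 34.7% of all genes, Ring1 was lower in ExE by a log2 difference of -2.43 ± 0.64 (adjusted p = 0.00281). In CASTxBDF1 the difference was -1.50 ± 0.85 (adjusted p = 0.188) and 1 of 4 embryos was higher in ExE.

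Among the PCGF subunits, Bmi1 was at 1.61 to 5.48 CPM in epiblast (median 3.27) and 4.33 to 11.2 in ExE (median 8.24), higher in ExE in 7 of 7 embryos. Its mean was 3.51 ± 1.47 CPM in epiblast and 8.46 ± 2.30 in ExE (SD, n = 7 and 7), 2.41 times as high. The log2 difference was 1.27 ± 0.31 (SE; adjusted p = 0.00224). Pcgf6, the subunit of the germline-gene-repressing variant complex, was at 272 to 372 CPM in epiblast (median 329) and 195 to 273 in ExE (median 216). It was lower in ExE in 7 of 7 embryos, and the groups met only at one ExE library of 273 CPM (log2 difference -0.53 ± 0.12, adjusted p = 0.00106). Pcgf2 averaged 5.68 ± 2.11 CPM in epiblast and 3.31 ± 1.63 in ExE and was lower in ExE in 7 of 7 embryos. Its difference missed the threshold (-0.75 ± 0.33, adjusted p = 0.062), and passed it without ExE embryo 3 (adjusted p = 0.0142) or epiblast embryo 6 (0.0467).

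The CBX readers went in opposite directions. Cbx2 was at 27.9 to 64.8 CPM in epiblast (median 37.1) and 7.24 to 18.3 in ExE (median 10.8). The tissues did not overlap, as was true in the lower direction for 13.9% of genes with a mean of at least 5 CPM, the background used for the other counts of this kind. The mean was 3.38 times as high in epiblast (39.5 ± 11.9 against 11.7 ± 3.49 CPM; log2 difference -1.70 ± 0.22, adjusted p = 2.8e-06). Cbx7, the CBX protein best known from pluripotent stem cells, was at 4.35 to 17.8 CPM in epiblast (median 9.80) and 9.00 to 34.7 in ExE (median 19.4). It was higher in ExE in 7 of 7 embryos although the groups overlapped (log2 difference 0.92 ± 0.31, adjusted p = 0.0176).

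The cofactors of variant complexes had few reads. Kdm2b averaged 4.59 CPM in epiblast and 0.823 in ExE, but the epiblast mean was carried by 19.1 CPM in embryo 8, against a median of 1.81. Its unfiltered difference was -2.13 ± 0.68 (adjusted p = 0.0137) in BDF1xCAST and -0.63 ± 1.05 (adjusted p = 0.656) in CASTxBDF1. Rybp did not pass the threshold in either cross (0.54 ± 0.47, adjusted p = 0.334, and 1.16 ± 0.72, adjusted p = 0.233).

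**Figure D1:**
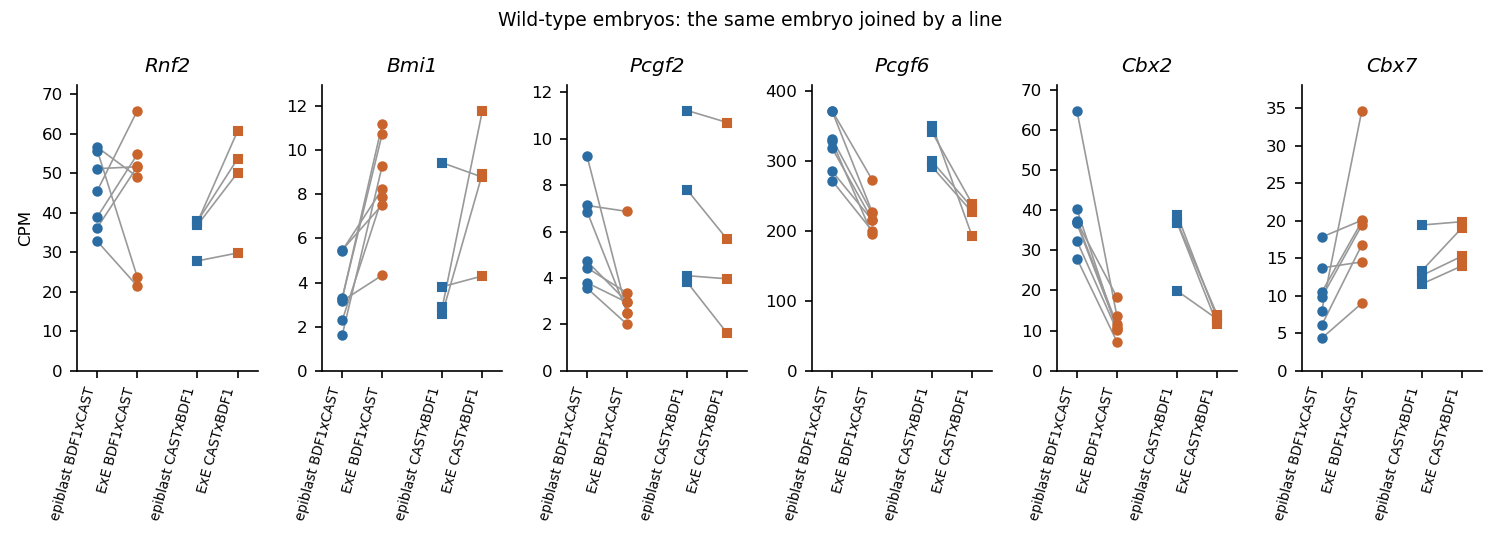
Level of 6 subunits in wild-type embryos, in CPM, with epiblast (blue) and ExE (orange) of the same embryo joined by a line; circles are BDF1xCAST and squares are CASTxBDF1. Cbx2 and Pcgf6 are lower in ExE in 7 of 7 BDF1xCAST and 4 of 4 CASTxBDF1 embryos, and Bmi1 is higher in ExE in 7 of 7 and 3 of 4.

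The CASTxBDF1 embryos share no library with the other cross. There 2 of 6 subunits were called, both lower in ExE, with 45% of all genes called (27.3% without the filter). Cbx2 was at 37.1, 38.9, 36.9 and 19.9 CPM in epiblast and at 14.0, 13.2, 11.6 and 12.9 in ExE of embryos 1 to 4 (log2 difference -1.36 ± 0.26, adjusted p = 0.000863). Pcgf6 was at 292, 351, 341 and 299 CPM in epiblast and at 227, 192, 239 and 233 in ExE (-0.54 ± 0.15, adjusted p = 0.0117). Both genes were lower in ExE in 4 of 4 embryos with no overlap, as were 19.9% of genes. Bmi1 was higher in ExE in 3 of 4 embryos (0.84 ± 0.49, adjusted p = 0.181), the exception being embryo 3, without which it passed the threshold (1.42, adjusted p = 0.0358). Cbx7 (0.25 ± 0.27, adjusted p = 0.477) and Pcgf2 (-0.33 ± 0.56, adjusted p = 0.659) did not pass the threshold. Rnf2 missed it too (0.45 ± 0.25, adjusted p = 0.167), and passed without ExE embryo 2 (0.62, adjusted p = 0.0407).

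No subunit was shown to differ between the wild-type crosses. In epiblast 0 of 6 subunits tested were called (background 0.0103%) and in ExE 0 of 7 (background 1.06%), with 0 at an unadjusted p under 0.05 in either tissue and 0 called by DESeq2. The largest of these log2 differences, CASTxBDF1 minus BDF1xCAST, was 0.71 ± 0.46 for Pcgf2 in ExE. In the fit without a filter Kdm2b differed more in epiblast (-1.46 ± 0.77, adjusted p = 0.533), at a mean of 1.34 CPM in CASTxBDF1. Cross, mother's strain and mode of fertilisation cannot be told apart here.

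For the knockouts the reference was the BDF1xCAST wild type of the matching tissue, so the comparisons within a tissue share their 7 control libraries and are not independent of each other. In epiblast, 3 of 6 subunits tested were called in Rnf2 (31% of all genes called), 5 of 6 in Eed (35.7%), 2 of 6 in G9a-Glp (34.6%) and 0 of 9 in Dnmt1 (14.1%; 3 at an unadjusted p under 0.05 and 0 by DESeq2). In ExE, 1 of 7 was called in Rnf2 (22.2%), 2 of 7 in Eed (40.8%), 1 of 7 in G9a-Glp (15.2%) and 0 of 7 in Dnmt1 (18.5%; 1 at an unadjusted p under 0.05 and 0 by DESeq2). In ExE these shares lie at or below the background in every knockout, and in epiblast they lie below it in G9a-Glp and Dnmt1. The Rnf2 counts include Rnf2 itself, the targeted gene, which is among the 3 subunits called in Rnf2 epiblast. The median log2 change of the subunits tested in epiblast was 0.41 in Rnf2, 0.39 in Eed, 0.07 in G9a-Glp and -0.43 in Dnmt1, beside -0.0045, 0.0098, 0.0086 and -0.0074 over all genes. In ExE it was 0.07, 0.30, 0.26 and 0.12, beside -0.029, 0.021, 0.0063 and -0.013. These medians span subunits that went in opposite directions, and those of the Rnf2 knockout include the targeted gene.

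**Figure D2:**
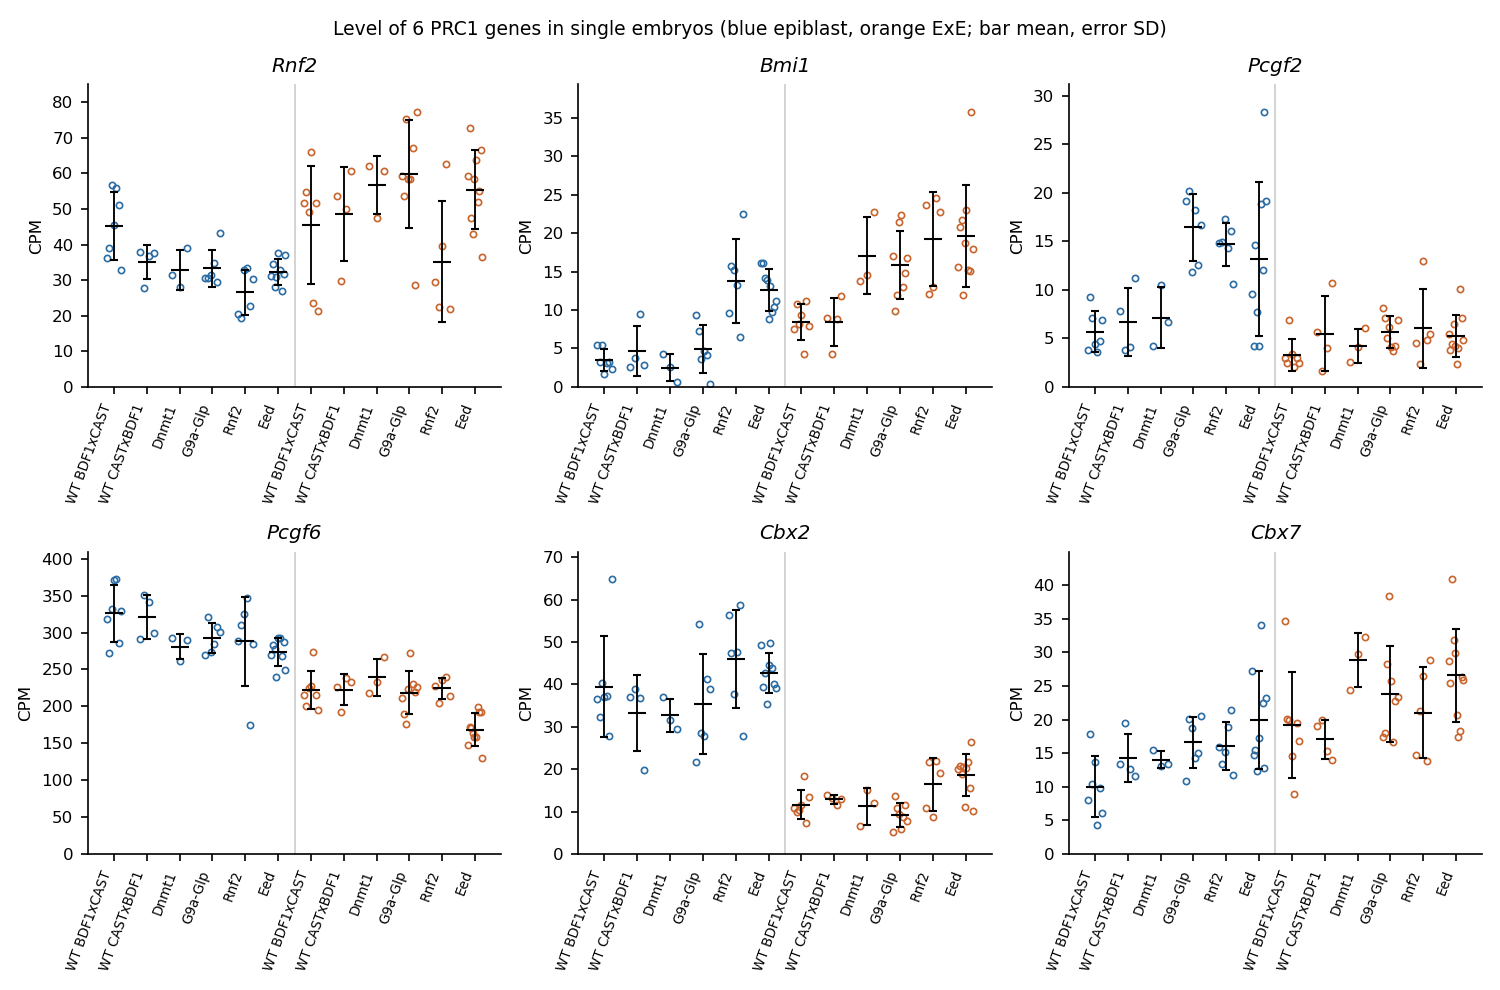
CPM of 6 subunits in each library of the 12 groups (blue epiblast, orange ExE; bar mean, error bar SD, linear axis from 0). Bmi1 stands above wild type in epiblast of Rnf2 and Eed and in ExE of the 4 knockouts, and Pcgf2 in epiblast of Rnf2, Eed and G9a-Glp.

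Rnf2 transcript was lower in the epiblast of the Rnf2 knockout, but was not lost. The epiblast libraries labelled Rnf2 held 20.5, 19.3, 32.9, 33.4, 22.7 and 30.4 CPM in embryos 1, 2, 3, 5, 6 and 8. The values of embryos 3 and 5 lay inside the wild-type range of 32.8 to 56.6, and the other 4 lay below it. The mean was 45.3 ± 9.58 CPM in wild type and 26.5 ± 6.42 in the knockout (SD, n = 7 and 6). The fitted level was 1.75-fold lower (log2 change -0.81 ± 0.21, adjusted p = 0.0080). In ExE the labelled libraries held 29.5, 22.4, 39.5, 62.7 and 21.9 CPM in embryos 2, 4, 5, 6 and 7, all inside the wild-type range of 21.4 to 65.9. The change there was -0.43 ± 0.30 (edgeR adjusted p = 0.317). Without embryos 2, 5 and 6 it was -1.09 ± 0.38 (edgeR adjusted p = 0.109), with only embryos 4 and 7 left in the knockout group. Embryos 2, 5 and 6 were left out for their Rnf2 level, so the larger drop was fixed by that choice and shows nothing further. Transcript level does not show whether the remaining transcripts encode protein.

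Rnf2 was also lower in the epiblast of other knockouts. In Eed epiblast it was at 27.0 to 37.5 CPM (median 31.8), with 5 of 9 libraries below all wild-type libraries (log2 change -0.66 ± 0.15, adjusted p = 0.00186). In G9a-Glp epiblast it was at 29.4 to 43.2 CPM (median 31.0; -0.54 ± 0.18, adjusted p = 0.0247). That call ended without embryos 2 and 7 (adjusted p = 0.0519), and at 0.0542 to 0.0566 without knockout embryo 2 or 5 or wild-type embryo 3 or 6. In Dnmt1 epiblast the change was -0.69 ± 0.26 (adjusted p = 0.0954; 0.0204 without wild-type embryo 8). The CASTxBDF1 wild-type epiblast libraries, which entered none of these tests, held 27.8 to 37.9 CPM of Rnf2 (median 37.3). Those values cover the same span as the Eed knockout, while the wild-type crosses themselves were not shown to differ (-0.31 ± 0.21, adjusted p = 0.786). In ExE, Rnf2 passed the threshold in none of the knockouts (log2 changes from -0.43 to 0.34). The change of Rnf2 in Eed differed between the tissues by 0.83 ± 0.24 (ExE minus epiblast, interaction term, adjusted p = 0.0171), the 1 of 7 subunits called in a test that called 15.9% of genes. In G9a-Glp the same difference was 0.91 ± 0.30 (adjusted p = 0.0619; 0 of 7 subunits called, background 6.83%, 1 at an unadjusted p under 0.05 and 1 by DESeq2). In Dnmt1, 0 of 9 subunits had a tissue difference (background 0.247%, 2 at an unadjusted p under 0.05 and 0 by DESeq2). Without wild-type epiblast embryo 3 the adjusted p in Eed was 0.0509.

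Ring1, the paralogue that can replace RNF2 as the catalytic subunit, was not shown to change in the libraries labelled Rnf2. In wild-type epiblast it was at 2.37 to 5.45 CPM and in Rnf2 epiblast at 3.29, 2.77, 3.32, 2.01, 2.34 and 2.56. The knockout values lay inside or below the wild-type range. Group means were 3.90 ± 1.26 and 2.71 ± 0.519, from 64 and 159 reads (unfiltered log2 change -0.47 ± 0.47, adjusted p = 0.567, background 10%). In ExE the Rnf2 libraries held 0.713, 0.877, 0.541, 2.07 and 0.572 CPM against 0 to 1.65 in wild type, from 38 and 13 reads (0.54 ± 0.75, adjusted p = 0.647, background 12.1%). The ranges overlapped in both tissues. Ring1 passed the threshold in 0 of the 8 unfiltered knockout fits, which called 5.4% of genes in Dnmt1 epiblast, 9.82% in Dnmt1 ExE, 13.3% and 8.2% in G9a-Glp, and 16.3% and 24.8% in Eed. Its log2 changes ran from -1.85 in Dnmt1 epiblast (5 reads in 3 libraries) to 1.19 in G9a-Glp ExE. In the filtered fit the Dnmt1 epiblast change of -1.88 ± 0.81 (adjusted p = 0.144) passed without knockout embryo 2 (adjusted p = 0.0414).

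Bmi1 was the subunit that rose most in the Polycomb knockouts. Wild-type epiblast held 1.61 to 5.48 CPM, Rnf2 epiblast 6.49 to 22.4 (median 14.2) and Eed epiblast 8.85 to 16.2 (median 13.1). All 6 Rnf2 and all 9 Eed libraries stood above every wild-type library, as happened in the higher direction for 8.88% and 6.19% of genes. Bmi1 rose 3.82-fold in Rnf2 (log2 change 1.93 ± 0.36, adjusted p = 0.000772) and 3.12-fold in Eed (1.64 ± 0.27, adjusted p = 0.000146). It fell under the filter in the test between the wild-type epiblast crosses, so it entered these fits through the knockout libraries. Without a filter Bmi1 changed by 1.97 ± 0.36 in Rnf2 (edgeR adjusted p = 0.00011, background 10%) and by 1.64 ± 0.32 in Eed (edgeR adjusted p = 0.0002, background 16.3%). In G9a-Glp epiblast it was at 0.428 to 9.41 CPM and did not pass the threshold (0.39 ± 0.47, adjusted p = 0.548), nor did it in Dnmt1 (-0.68 ± 0.62, adjusted p = 0.518).

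In ExE, where wild type held more Bmi1 to begin with (4.33 to 11.2 CPM), the level was higher in each knockout group. Eed ExE held 11.9 to 35.8 CPM (median 18.3), with 10 of 10 libraries above wild type, as for 5.6% of genes (1.03 ± 0.23, adjusted p = 0.00117). Rnf2 ExE held 23.6, 12.1, 13.0, 24.5 and 22.7 CPM in embryos 2, 4, 5, 6 and 7, with 5 of 5 above wild type, as for 8.27% of genes (1.13 ± 0.26, adjusted p = 0.00579). The Rnf2 call ended without embryos 2, 5 and 6 (0.97 ± 0.35, edgeR adjusted p = 0.131), in a fit with only knockout embryos 4 and 7. G9a-Glp ExE held 9.84 to 22.4 CPM (median 15.8), 7 of 8 above wild type (0.85 ± 0.24, adjusted p = 0.0213). With counts thinned to equal depth that call ended (0.71, adjusted p = 0.0748). Dnmt1 ExE held 13.8, 14.6 and 22.8 CPM, 3 of 3 above wild type as for 18% of genes, and missed the threshold (0.76 ± 0.31, adjusted p = 0.103). It passed when libraries were scaled to their totals only (1.02, adjusted p = 0.0299), a scaling that also moved the median of all genes by 0.25. The CASTxBDF1 wild type had the same mean as BDF1xCAST (8.46 ± 3.10 and 8.46 ± 2.30 CPM). Between the tissues the Bmi1 response was not shown to differ, either in Rnf2 (-0.80 ± 0.45, adjusted p = 0.324; 0 of 8 subunits called, background 6.82%, 0 at an unadjusted p under 0.05 and 0 by DESeq2) or in Eed (-0.56 ± 0.34, adjusted p = 0.269). Across the 12 groups the mean ran from 2.51 CPM in Dnmt1 epiblast and 3.51 in wild-type BDF1xCAST epiblast to 19.2 in Rnf2 ExE and 19.6 in Eed ExE. Neighbours at each end of that order overlapped.

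Pcgf2, the other PCGF protein of canonical PRC1, rose in the epiblast of 3 knockouts. Wild-type epiblast held 3.56 to 9.25 CPM, Rnf2 epiblast 10.7 to 17.3 (median 14.9) and G9a-Glp epiblast 11.8 to 20.2 (median 17.4). All 6 libraries of each stood above wild type, as for 8.88% and 10.5% of genes. The log2 change was 1.33 ± 0.25 in Rnf2 (adjusted p = 0.000978) and 1.44 ± 0.27 in G9a-Glp (adjusted p = 0.000599; 1.40, adjusted p = 0.0057 without embryos 2 and 7). Eed epiblast was more spread, from 4.21 to 28.3 CPM (median 12.04), with 6 of 9 libraries above wild type (1.07 ± 0.36, adjusted p = 0.0267). The Eed call ended, with adjusted p from 0.0519 to 0.0661, without knockout embryo 9 or wild-type embryo 1, 4, 6 or 7. In Dnmt1 epiblast Pcgf2 was at 4.22, 6.71 and 10.5 CPM (0.08 ± 0.46, adjusted p = 0.930). In ExE it passed the threshold in none of the knockouts, with log2 changes from 0.12 in Dnmt1 to 0.71 in G9a-Glp. Wild-type ExE embryo 3 held 6.87 CPM, and without it Pcgf2 was called in Eed ExE (0.79, adjusted p = 0.0499) and G9a-Glp ExE (0.99, adjusted p = 0.0310).

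Pcgf6 moved the other way in the Eed knockout. In epiblast the mean was 326 ± 38.4 CPM in wild type and 273 ± 18.8 in Eed (SD, n = 7 and 9). The Eed libraries lay at 240 to 293 CPM (median 278) against 272 to 372 in wild type, and Pcgf6 fell (log2 change -0.41 ± 0.11, adjusted p = 0.00484). In ExE it fell from 222 ± 25.6 to 169 ± 21.8 CPM, with the Eed libraries at 130 to 200 and 9 of 10 of them below the lowest wild-type library of 195 (-0.56 ± 0.11, adjusted p = 0.00046). The epiblast call ended when libraries were scaled to totals only (-0.25, adjusted p = 0.0529) and without the filter (-0.41, adjusted p = 0.054). In Rnf2, Pcgf6 changed by -0.20 ± 0.16 in epiblast (adjusted p = 0.362) and by -0.04 ± 0.11 in ExE (adjusted p = 0.830). In Dnmt1 and G9a-Glp epiblast it missed the threshold (-0.43, adjusted p = 0.116, and -0.24, adjusted p = 0.109), and passed without wild-type embryo 8 (adjusted p = 0.0309 and 0.0479).

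Of the CBX readers, Cbx2 passed the threshold in no knockout. In epiblast its mean was 39.5 ± 11.9 CPM in wild type, 46.0 ± 11.6 in Rnf2 and 42.7 ± 4.77 in Eed. In ExE the wild-type libraries held 7.24 to 18.3 CPM and the Eed libraries 10.2 to 26.3 (median 20.2), with 7 of 10 above wild type (0.48 ± 0.21, adjusted p = 0.0678). Without Eed embryo 5 or 10 or wild-type embryo 6 that difference passed the threshold (adjusted p = 0.0391, 0.0402 and 0.0232). Cbx7 rose in Eed epiblast, where it was at 12.3 to 34.0 CPM (median 17.3) against 4.35 to 17.8 in wild type, with 4 of 9 libraries above wild type (0.80 ± 0.28, adjusted p = 0.0298). That call ended, with adjusted p from 0.0532 to 0.0676, without knockout embryo 6 or wild-type embryo 1, 6 or 7. In Rnf2 and G9a-Glp epiblast Cbx7 missed the threshold (0.61, adjusted p = 0.115, and 0.59, adjusted p = 0.121) and passed without wild-type embryo 2 (adjusted p = 0.0313 and 0.0298).

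The variant-complex cofactors Kdm2b and Rybp passed the threshold in 0 of the 8 unfiltered knockout fits each. In the filtered ExE fits Rybp missed it too, with log2 changes from -0.67 in Eed (edgeR adjusted p = 0.176) to 0.45 in Dnmt1 (edgeR adjusted p = 0.565). Kdm2b means lay between 0.690 CPM in Rnf2 ExE and 4.93 in Dnmt1 epiblast, and those of Rybp between 1.66 in CASTxBDF1 epiblast and 6.28 in Dnmt1 ExE. Rybp, which stimulates the ligase in variant complexes, was at 1.23 to 2.27 CPM in Rnf2 epiblast against 0.762 to 4.61 in wild type (-0.68 ± 0.59, adjusted p = 0.514).

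**Figure D3:**
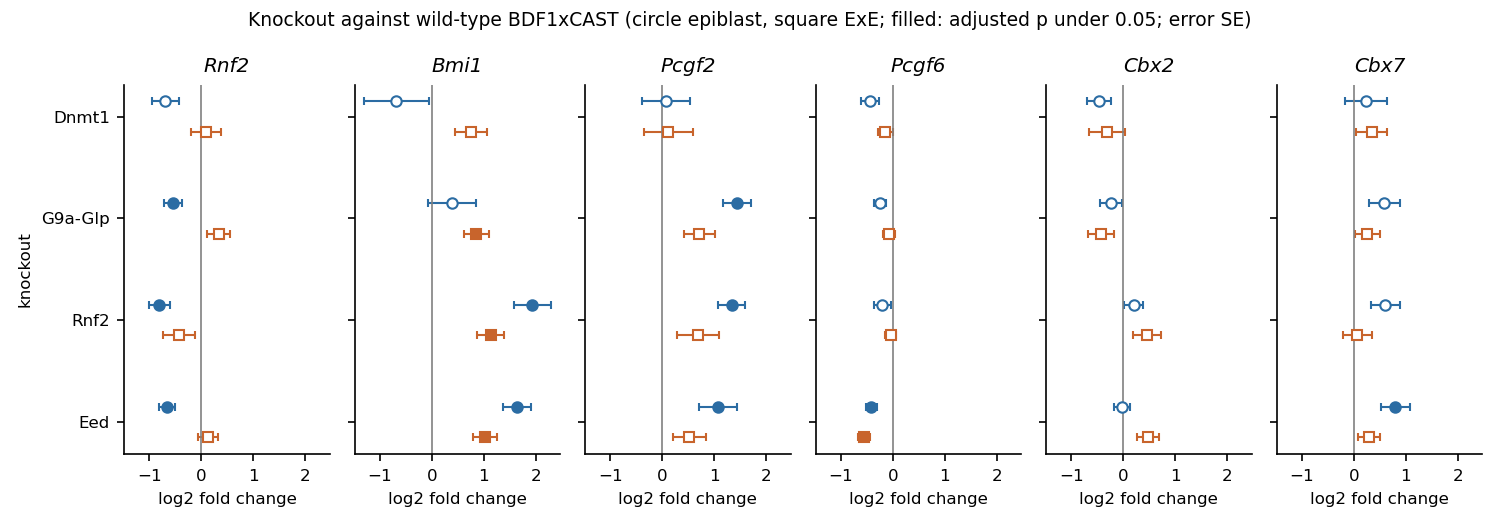
Log2 fold change of 6 subunits in each knockout against wild type BDF1xCAST (circles epiblast, squares ExE; error bar SE; filled symbols have an adjusted p under 0.05). Bmi1 lies near 1 or above in Rnf2 and Eed in both tissues, Pcgf2 is filled in epiblast of Rnf2, Eed and G9a-Glp, and Rnf2 lies left of 0 in epiblast of the 4 knockouts.

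Marker sums moved with these groups. The summed level of the ectoplacental cone and giant cell list (5 of 6 genes in the table) ran from 16.8 to 1240 CPM in wild-type ExE (median 436), from 313 to 2344 in Rnf2 (median 1235), from 14.5 to 2471 in G9a-Glp (median 636), from 171 to 755 in Dnmt1 (median 195) and from 460 to 5702 in Eed (median 3180). Prl3d1 was at 0 in all of these groups, Tpbpa in wild type and Dnmt1 and Gcm1 in Eed and Dnmt1, and Plac1 had the highest mean of the list. The ExE list (8 of 10 genes) ran from 586 to 1058 CPM in wild type and from 317 to 638 in Eed, with no gene at 0. In epiblast, the primitive streak and mesoderm list (7 of 8 genes, none at 0) had a median of 464 CPM in wild type (22.1 to 1371), 114 in Rnf2 (50.9 to 319), 182 in Eed (122 to 579) and 174 in G9a-Glp (51.7 to 330). The ExE list summed in epiblast to a median of 102 CPM in wild type (27.1 to 227, Cdx2 and Pglyrp1 at 0) and 65.5 in Rnf2 (25.1 to 149). Its median was 39.4 CPM in Eed (25.4 to 106) and 73.1 in G9a-Glp (27.4 to 128, Pglyrp1 at 0), and Eomes had the highest mean of it in wild type. Elf5, Bmp4 and Sox21, picked from this list, reached higher values in Rnf2 epiblast although the median of the sum was lower there. Elf5 was at 0.246 to 50.0 CPM against 0 to 3.81 in wild-type epiblast, Bmp4 at 3.78 to 24.4 against 0 to 1.21, and Sox21 at 0.246 to 10.8 against 0 to 0.422. Wild-type ExE held 171 to 363, 27.7 to 93.8 and 6.70 to 23.7 CPM of them. In Eed epiblast they were at 0 to 18.9, 0.571 to 6.18 and 0 to 2.60 CPM. The visceral endoderm list (10 of 10 genes, none at 0) had a median of 8.71 CPM in wild-type epiblast (6.71 to 494), 27.6 in Rnf2 (17.0 to 91.9), 34.2 in Eed (23.5 to 65.1) and 77.4 in G9a-Glp (9.78 to 313). Its member Afp averaged 43.8 CPM in wild type (0 to 268), 2.40 in Rnf2 and 1.05 in Eed. The ectoplacental list had a median of 8.71 CPM in wild-type epiblast (6.33 to 21.3; Prl3d1 and Gcm1 at 0) and 38.8 in Rnf2 (19.5 to 69.9; Prl3d1 and Tpbpa at 0). The part of these differences, and of the greater depth of the Rnf2 libraries, in the subunit changes was not tested, except that thinning all counts to equal depth left the Rnf2 and Eed calls of subunits in place but for Bmi1 in Rnf2 epiblast, which then fell under the filter on low counts and was not tested.

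Other genes of the PRC1 pathway were taken from a list of 39, of which 37 had a row. In wild type BDF1xCAST, 8 of 28 tested were higher in ExE and 8 were lower (median log2 difference -0.18, beside -0.017 over all genes, of which 27.9% were called higher and 28.7% lower). Highest in ExE were Scmh1, a Polycomb-group protein of the PHC-binding family (log2 difference 3.22), and Pcgf5, of a variant complex (2.96), ahead of Max (1.24) and Yaf2 (0.82). Lowest were Phc1, a canonical subunit that polymerises (-2.99), the MGA-complex subunits Tfdp2 (-2.28) and Mga (-1.40), and the HP1 protein Cbx3 (-1.26). In CASTxBDF1, 8 of 29 were higher, led by Pcgf5 (2.74), Cbx8 (2.50), Scmh1 (2.31) and Hdac1 (1.27) (22% of all genes) and 5 were lower (23%), led by Phc1 (-3.26), Tfdp2 (-1.71), Cbx3 (-1.02) and Mga (-0.83). Pcgf5 averaged 21.6 ± 4.96 CPM in BDF1xCAST epiblast and 167 ± 32.0 in ExE, and Phc1 86.4 ± 7.78 and 10.6 ± 6.02.

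The same list was read in the knockouts, with all libraries, beside the share of all genes called in each direction. In Rnf2 epiblast, 4 of 28 rose and 3 fell (median -0.13, beside -0.0045 over all genes; 18% and 13% of all genes). Cbx8, a canonical CBX reader (3.63), Max (1.82), Pcgf5 (1.14) and Yaf2 (0.59) rose, and Cbx3 (-0.66), Phc1 (-0.46) and Tfdp2 (-0.42) fell. Cbx8 averaged 0.983 ± 1.03 CPM in wild-type epiblast and 11.3 ± 2.98 in Rnf2. At that wild-type level it entered the fit through the Rnf2 libraries. The canonical part of the list had 3 genes tested in Rnf2 epiblast and 2 in each of Eed, G9a-Glp and Dnmt1 epiblast. Those of G9a-Glp were Phc1 and Phc3, so Cbx8 was not tested there. Its rise is not shown to be particular to Rnf2. In Eed epiblast, 4 of 27 rose, namely Max (1.72), Pcgf5 (0.75), Yaf2 (0.50) and the deubiquitinase Usp7 (0.39), and Cbx3 fell (-0.95), beside 19.2% and 16.5% of all genes (medians -0.10 and 0.0098). In G9a-Glp epiblast, 5 of 27 rose, led by Max (2.10), Yaf2 (0.76), Csnk2a1 (0.75) and Usp7 (0.46), and 4 fell, Phc3 (-1.37), E2f6 (-1.07), Mga (-1.03) and Phc1 (-0.35), beside 19.6% and 15% (medians 0.11 and 0.0086). In Dnmt1 epiblast, 4 of 27 rose, Max (1.40), Csnk2a1 (1.01), Asxl2 (0.78) and Usp7 (0.70), and 0 fell, beside 6.94% and 7.16% (medians 0.16 and -0.0074). Max was thus called in each epiblast knockout. It averaged 8.14 ± 2.59 CPM in their shared wild type and 12.3 ± 3.35 in CASTxBDF1.

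In Rnf2 ExE, Cbx8 (1.60), Bcor (1.08), the scaffold of the PCGF1 complex, and Max (0.91) rose, and the H2A deubiquitinases Bap1 (-0.75), Mysm1 (-0.62) and Usp16 (-0.39) fell, of 29 tested, beside 12.2% and 9.99% of all genes (medians 0.033 and -0.029). In Eed ExE, 4 of 29 rose, Bcor (1.70), Cbx8 (1.32), Pcgf5 (0.81) and Fbrsl1 (0.46). Of the 6 that fell, Scmh1 (-1.59), Cbx3 (-0.60), Usp16 (-0.60) and Bap1 (-0.48) moved most, beside 22.7% and 18.1% of all genes (medians -0.19 and 0.021). In G9a-Glp ExE, 1 of 29 was called, Yaf2, which rose (0.70), beside 8.5% of genes higher and 6.66% lower (medians -0.065 and 0.0063). In Dnmt1 ExE 0 of 29 were called, beside 8.54% higher and 9.96% lower (medians -0.047 and -0.013).

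The reads of each allele were available for subunits with enough counts. In wild type no subunit favoured the maternal or the paternal allele by the parental term fitted over both crosses, with 0 of 5 tested called in epiblast (background 0.319%) and 0 of 6 in ExE (background 0.855%), and 0 at an unadjusted p under 0.05 or by limma. By strain, 1 of 5 was called in epiblast (background 42.9%), Cbx2 with a BDF1 to CAST log2 ratio of 0.41 ± 0.15 (adjusted p = 0.0265; 0.0535 and 0.0733 without CASTxBDF1 embryo 1 or 2). In ExE 3 of 6 were called (background 49.2%), all toward BDF1. They were Rybp (2.73 ± 0.42, adjusted p = 1.6e-05), Rnf2 (0.56 ± 0.12, adjusted p = 0.000563) and Cbx2 (0.73 ± 0.23, adjusted p = 0.0141; 0.0641 without CASTxBDF1 embryo 2). Rybp had 71.4% to 100% BDF1 reads in the 11 wild-type ExE libraries, from 4 to 21 reads each. Toward BDF1 is also the prevailing direction of the table, in which 39% of genes were called that way in ExE and 10.2% toward CAST. In the knockouts the maternal share changed in 0 subunits in each of the 8 comparisons, with 0 by limma. The backgrounds were 0.686% in Rnf2, 1.05% in Eed, 1.81% in G9a-Glp and 0.894% in Dnmt1 epiblast, and 0.911%, 2.65%, 1.1% and 0.856% in ExE. At an unadjusted p under 0.05 there was 1 subunit in Rnf2 and Eed epiblast and in Rnf2, G9a-Glp and Dnmt1 ExE.

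A group mean hides how the Rnf2 alleles behaved in single Rnf2 embryos, a measure chosen after the values were seen. In Rnf2 epiblast the BDF1 share of Rnf2 reads was 93.9% in embryo 1, 9.04% in embryo 2, 69.4% in embryo 3, 5.66% in embryo 5, 61.1% in embryo 6 and 50.5% in embryo 8. In ExE it was 6.55% in embryo 2, 38.3% in embryo 4, 4.11% in embryo 5, 87.9% in embryo 6 and 9.80% in embryo 7. Wild type BDF1xCAST ran from 36.9% to 66.3% in epiblast and from 47.5% to 69.0% in ExE, so 4 of 6 epiblast and 5 of 5 ExE libraries lay outside it. The extremes were far from even by counting error: embryo 1 had 22 CAST reads of 362 (95% exact interval of the BDF1 share 90.9% to 96.2%) and embryo 5 had 15 BDF1 reads of 265 in epiblast (3.20% to 9.16%) and 3 of 73 in ExE (0.856% to 11.5%). The intervals cover counting error only. Embryos 2 and 5 had few BDF1 reads in both tissues, and embryo 6 had 61.1% in epiblast and 87.9% in ExE.

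The level of the less abundant Rnf2 allele was therefore compared as well. The quantities compared were chosen after the Rnf2 shares had been seen. Their p-values therefore describe a pattern already picked from these libraries. How many other genes have as many libraries below wild type was not measured. The less abundant allele averaged 19.3 ± 5.07 CPM in wild-type epiblast (12.2 to 26.8) and 6.47 ± 5.71 in Rnf2 (1.25 to 15.1). In Rnf2, 5 of 6 libraries lay below all wild-type libraries (exact two-sided permutation test, p = 0.0035). In ExE the less abundant allele averaged 17.8 ± 7.95 and 4.37 ± 3.40 CPM, with 3 of 5 below (exact permutation p = 0.00758). The more abundant allele was at 26.1 ± 5.64 and 20.1 ± 6.41 CPM in epiblast (exact permutation p = 0.104) and at 27.7 ± 9.69 and 30.8 ± 16.3 in ExE (exact permutation p = 0.659). The distance of the share from 50% averaged 7.72 and 26.7 percentage points in epiblast (exact permutation p = 0.042) and 11.3 and 35.8 in ExE (exact permutation p = 0.0126). Over the 24 such tests, of 3 quantities in 4 knockouts and both tissues, none passed after Benjamini-Hochberg adjustment (adjusted p = 0.0606 for both lower-allele tests of Rnf2). Eed epiblast reached the same adjusted p for the lower allele, at 13.4 ± 2.44 CPM, with shares of 51.6% to 69.6%. The epiblast distance lost its unadjusted p under 0.05 (up to 0.0909) without any one of knockout embryos 1, 2, 3 and 5 or wild-type embryos 2, 3, 4, 7 and 8.

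Few other genes had such opposite extremes within 1 group. Among autosomal genes with at least 20 reads in every library of the group, 33 of 8748 in Rnf2 epiblast (0.377%) and 3 of 6537 in Rnf2 ExE (0.0459%) had at least 1 library at 85% BDF1 reads or more and 1 at 15% or less. Rnf2 was among them in both tissues, which was fixed in advance, as the measure was chosen after its shares had been seen. The wild-type BDF1xCAST groups had 4 of 5504 (0.0727%) and 1 of 6201 (0.0161%), without Rnf2. Genes with a library at either extreme were 13.0% in Rnf2 epiblast and 8.99% in wild-type epiblast, and 5.46% and 7.06% in ExE. The test of the mean maternal share did not call Rnf2 in Rnf2 ExE (log2 change -2.01 ± 0.83, adjusted p = 0.394), where embryo 6 went opposite to the other 4 embryos. Without embryo 6 the change was -3.21 (edgeR adjusted p = 0.00209), the 1 of 16 alternatives that called it. Embryo 6 stands out by its share, the quantity tested, so the larger change was fixed by leaving it out and shows nothing further.

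**Figure D4:**
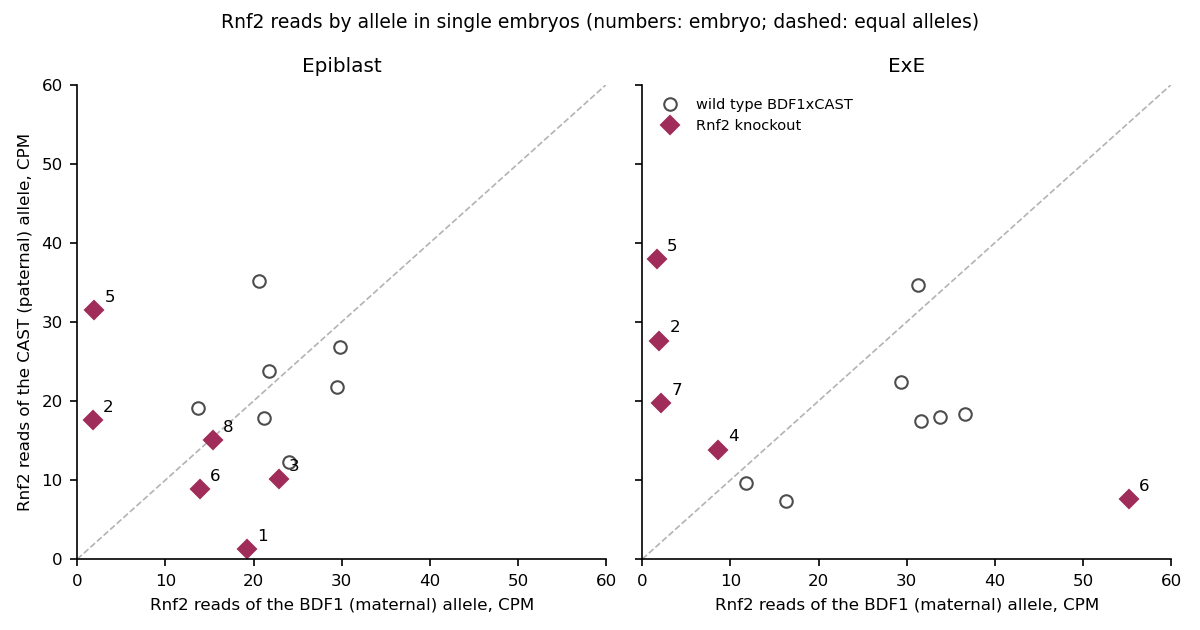
Rnf2 reads of the BDF1 allele (x) and of the CAST allele (y) in each library, in CPM, for wild type BDF1xCAST (circles) and embryos labelled Rnf2 knockout (diamonds, with embryo number); the dashed line marks equal alleles. Wild-type embryos lie on both sides of the line in epiblast and mostly toward BDF1 in ExE, and Rnf2 embryos 1, 2 and 5 in epiblast and 2, 5, 6 and 7 in ExE lie close to one axis.

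For each subunit, the genes most like it over the 12 group means were named by the smallest root mean square difference of centred log2(CPM + 1) profiles, among 9399 genes with a mean of at least 5 CPM. This is a description, and the group means share libraries. Pcgf6 had the closest matches, Strap (0.0804) and Ints2 (0.104), followed by Cbx7 with Lnx2 (0.110) and Sidt2 (0.121). Rnf2 was nearest to Pja2 (0.162) and Tor1aip2 (0.167), Cbx2 to Tmem132a (0.194) and Zfp113 (0.210), Pcgf2 to Slc39a14 (0.246) and Zmat5 (0.246), and Bmi1 to Lmf1 (0.299) and Dap (0.311). Between subunits the closest pair was Rnf2 and Cbx7 (0.389), so no subunit had another subunit as its nearest gene. Ring1, Kdm2b and Rybp were under the minimum level.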

How the data were processed

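RNA-seq read counts over BDF1/CAST polymorphisms were deposited by the authors per gene and library, raw, for 72 libraries in 12 groups. STAR 2.5.0, HTSeq and mm10 are named by the submitters' processing notes, without roles. The authors also deposited 2 scores, the CAST share minus 0.5 and a signed −log10 binomial p-value, from which allele reads were recovered (99.991% of 712002 scored values matched within 0.002). Members and lists were chosen with earlier results of these data known. Named genes are the members, the called list genes with the largest changes and the nearest profiles.

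Counts were tested with edgeR 4.0.16 (quasi-likelihood, TMM scaling, filterByExpr, R 4.3.3) on the groups compared, two-sided, with Benjamini-Hochberg adjustment over all genes and a threshold of 0.05. Allele reads (autosomal genes with at least 10 reads in 3 libraries of each group) were tested with edgeR, with limma 3.58.1 as an alternative. Other alternatives were DESeq2 1.42.0, scaling, filters, thinned counts, sex, left-out libraries and a replicate block. Rnf2 allele levels used exact permutation tests (scipy 1.17.1). Groups came from the labels; where titles and embryo tags of Eed disagreed, the tags were used. Epiblast and ExE of a number are the same embryo (deviations correlated over 0.1 in 6 of 7 and 3 of 4 pairs), and blocking on it changed no lineage call. Tests were tried on simulated data. A bisulfite sample was not analysed here.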

Additional observations from a re-analysis of the deposited data

Results flagged for a closer look

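In 11 of 100 groups of 4 to 10 libraries, 1 library stood apart from the rest of its group by Dixon's test; chance marks about 1 in 20. In Rnf2 epiblast these were Pcgf6 at 175.1 CPM (embryo 6, the others at 284 to 347), and in Rnf2 ExE Ring1 at 2.074 CPM (embryo 6). In Eed ExE it was Bmi1 at 35.77 CPM. The others were wild type. In BDF1xCAST epiblast Cbx2 was at 64.79 CPM and Kdm2b at 19.06 CPM, both in embryo 8. In BDF1xCAST ExE Pcgf2 was at 6.87 CPM (embryo 3), Pcgf6 at 273.4 CPM and Cbx7 at 34.71 CPM. In CASTxBDF1 epiblast Rnf2 was at 27.83 CPM (embryo 2), Cbx2 at 19.91 CPM (embryo 4) and Kdm2b at 0.7239 CPM. The response of Rnf2 to the Eed knockout differed between ExE and epiblast by 0.8291 on the log2 scale (edgeR adjusted p = 0.0171). The Rnf2 level was below wild type in epiblast (32.3 against 45.3 CPM). In ExE it was not shown to differ from wild type (55.4 against 45.5 CPM, fitted log2 change 0.12 ± 0.19, edgeR adjusted p = 0.627).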

How the results depend on the processing

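No result reversed. Of the values for single genes under the alternatives, 3653 kept their side of the threshold, 36 newly passed it and 40 lost it. The number of subunits called changed as follows. With library totals only, it was 1 in Dnmt1 ExE (0 before), 3 in Eed ExE (2), 4 in Eed epiblast (5, also 4 without the filter) and 1 in G9a-Glp epiblast (2; 3 with DESeq2), where no filter and leaving out embryos 2 and 7 also gave 1. Thinned counts gave 2 in the Eed tissue difference (1) and 0 in G9a-Glp ExE (1), and, as Bmi1 fell under the filter, 2 in Rnf2 epiblast (3) and 3 between the BDF1xCAST tissues (4; 6 without a filter, where Ring1 and Kdm2b were tested). DESeq2 and sex as a covariate gave 1 each in the G9a-Glp tissue difference (0). Fitting all groups of the tissue gave 2 in Dnmt1 epiblast (0), and leaving out embryos 2, 5 and 6 gave 0 in Rnf2 ExE (1). For the strain term, minimums of 20 and 50 reads gave 2 and 1 in ExE (3) and limma gave 2 in epiblast (1). Leaving out 1 library at a time gave 0 to 1 for the maternal share in Rnf2 ExE, 2 to 4 and 0 to 1 for strain in ExE and epiblast, 0 to 2 and 0 to 1 for the Eed and G9a-Glp tissue differences, 1 to 2 in G9a-Glp ExE, 0 to 2 in Dnmt1 epiblast, 3 to 5 in Eed epiblast, 1 to 3 in G9a-Glp epiblast, 3 to 4 in Rnf2 epiblast, 2 to 3 in Eed ExE, and 4 to 5 and 2 to 3 between the tissues of BDF1xCAST and CASTxBDF1.

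Knockout and wild-type embryos share only a number (same-numbered pairs correlated over 0.1 in 1 of 5 cases for Rnf2 and 3 of 6 for Eed, in epiblast). A replicate block on embryo number gave 2 subunits in Eed epiblast (5 without), 2 in Rnf2 epiblast (3), 0 in Rnf2 ExE (1), 0 in G9a-Glp ExE (1) and 0 for strain in epiblast (1), and rests only on embryos whose number occurs in both groups. Bmi1 in Rnf2 and G9a-Glp ExE (adjusted p = 0.106 and 0.103) and Rnf2 in Rnf2 epiblast (0.0705) did not pass with it.

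Library totals only raised the median log2 change of all genes by 0.25 and 0.21 in Dnmt1 ExE and epiblast and by 0.17 and 0.16 in Eed. The share of calls that were higher moved from 46.2% to 72.5%, 49.2% to 71.3%, 55.6% to 74.1% and 53.8% to 72.1%. Ring1, Kdm2b and Rybp had medians of 4.5, 4.0 and 9.0 reads per library, which limits what could be detected.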
